A study of Mus musculus with 30 samples.

Results

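The albumin and alpha-fetoprotein neighbourhood is the interval chr5:90300001-91000000 of the mouse genome (GRCm39), set so that it holds Alb, Afp and Afm. Its members are all therapeutic transposon insertion sites recorded there, 1996 of the 2181734 sites in the 30 livers of the series. Of these, 1417 lay in PB livers and 579 in SB livers. The interval is 700 kb long and was cut into 70 steps of 10 kb and 7 windows of 100 kb. It was compared with the 2 Mb on each side, which held 4519 PB and 2533 SB sites.

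The livers came from Fah KO mice, which lack the last enzyme of tyrosine breakdown and model hereditary tyrosinemia (TT1), and which were given a gene therapy vector by an in vivo transposon system. The labels name 17 livers treated with piggyBac (PB) and 13 treated with Sleeping Beauty (SB), so the knockout is common to both groups and no untreated liver was analysed here. Insertion sites were read in genomic DNA from whole-liver lysates by streptavidin-based enrichment sequencing (SBE-seq), in which transposon-genome junctions are amplified with a biotinylated transposon primer. The age, dose and vector sequence of the animals' treatment are not given in the sources used here, and a site is seen without the cell type that carries it.

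Albumin is the main protein that hepatocytes secrete into blood. Afp encodes alpha-fetoprotein, the related carrier protein of the fetal liver, and Afm encodes afamin, a carrier of vitamin E in plasma. They belong to the albumin gene family, and these 3 genes lie side by side. PB inserts at the tetranucleotide TTAA, which it duplicates, and SB inserts at the dinucleotide TA.

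The gene and promoter tables used here are on GRCm38.p6, so no site was placed inside or outside a gene. In that table the order of genes across the cluster is Ankrd17, Alb, Afp, Afm, Albfm1, Rassf6 and Cxcl5. The 250 bases before the start of each of the 3 named genes are shown from RefSeq (GRCm38.p6 coordinates, which do not compare with the site positions below), because they show how PB and SB targets are spelled in this cluster. Capitals mark TTAA, which reads the same on both strands.
Alb, chr5:90460620-90460869, + strand: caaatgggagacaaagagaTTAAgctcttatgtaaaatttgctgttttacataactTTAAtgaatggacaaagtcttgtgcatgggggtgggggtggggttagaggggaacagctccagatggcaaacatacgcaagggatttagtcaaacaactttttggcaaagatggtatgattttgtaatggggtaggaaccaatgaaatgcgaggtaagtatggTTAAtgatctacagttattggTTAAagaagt
Afp, chr5:90490464-90490713, + strand: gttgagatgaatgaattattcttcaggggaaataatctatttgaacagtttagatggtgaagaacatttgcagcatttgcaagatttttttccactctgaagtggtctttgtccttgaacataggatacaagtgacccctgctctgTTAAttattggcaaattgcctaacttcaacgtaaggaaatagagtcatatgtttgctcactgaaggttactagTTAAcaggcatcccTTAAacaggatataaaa
Afm, chr5:90518699-90518948, + strand: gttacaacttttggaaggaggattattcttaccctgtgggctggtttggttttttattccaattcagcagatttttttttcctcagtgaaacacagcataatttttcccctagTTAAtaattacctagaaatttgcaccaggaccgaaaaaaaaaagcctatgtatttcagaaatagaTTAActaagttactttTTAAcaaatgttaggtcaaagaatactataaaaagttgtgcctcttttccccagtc
Alb held 4 TTAA and Afp and Afm 3 each, whereas 49.0% of 32851 mouse promoter windows of this length held any TTAA and 9.15% held 3 or more. TA, which includes the TA inside each TTAA, occurred 18 times before Alb, 18 times before Afp and 21 times before Afm, against a median of 9 over all promoter windows, of which 98.7% held at least 1. These are letter matches and say nothing of use as targets.

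PB livers carried a larger share of their sites in the neighbourhood than SB livers did, and the groups did not overlap. A PB liver had 15 to 160 sites there (median 87), out of 16364 to 124238 nuclear sites, and an SB liver had 3 to 78 (median 44), out of 4893 to 120219. Per 10000 nuclear sites, PB livers had 7.70 at the lowest (PB liver 13), 11.5 at the median and 14.2 at the highest (PB liver 14). SB livers had 4.99 at the lowest (SB liver 12), 6.13 at the median and 7.52 at the highest (SB liver 1). The lowest PB liver thus stood just above the highest SB liver, and with only 18 sites its exact (Clopper-Pearson) 95% interval ran from 4.56 to 12.2. The interval of SB liver 1 ran from 5.95 to 9.39. Intervals cover counting error only, and reads amplified by PCR with no molecular identifier are not independent molecules.

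The mean was 11.2 ± 1.58 per 10000 in PB livers (SD, n = 17) and 6.09 ± 0.787 in SB livers (SD, n = 13). On the log2 scale PB exceeded SB by 0.86, a ratio of 1.82 (two-sided permutation test, p = 1e-05, the smallest that the resamples can give, adjusted p = 0.00011 over a family of 11 tests). Within livers numbered 1 to 6 the means were 11.5 ± 0.851 in PB and 6.53 ± 0.695 in SB, and within livers 7 to 12 they were 11.6 ± 0.774 in PB and 5.64 ± 0.731 in SB (SD, n = 6 each). The exact permutation p was 0.00216 in each of these ranges, the smallest that 6 livers against 6 can give. With positions found in more than 1 liver left out, a step that removes more of the PB sites, the ratio was 1.22 and the call was lost (p = 0.0718).

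PB livers 13 to 17 had 10.4 ± 2.67 sites per 10000 and PB livers 1 to 12 had 11.6 ± 0.780 (SD, n = 5 and 12). This difference did not pass an exact permutation test (log2 difference −0.16, adjusted p = 0.339). With positions found in more than 1 liver left out it was −0.63 and passed (exact permutation p = 0.0133, unadjusted). Only 14 of the 17 PB livers kept at least 10 sites in the neighbourhood in that setting. PB livers 13, 16 and 17 had 18, 15 and 15 sites before it, so the value rests on few sites in them. What sets the livers past number 12 apart is not in the labels.

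**Figure D1:**
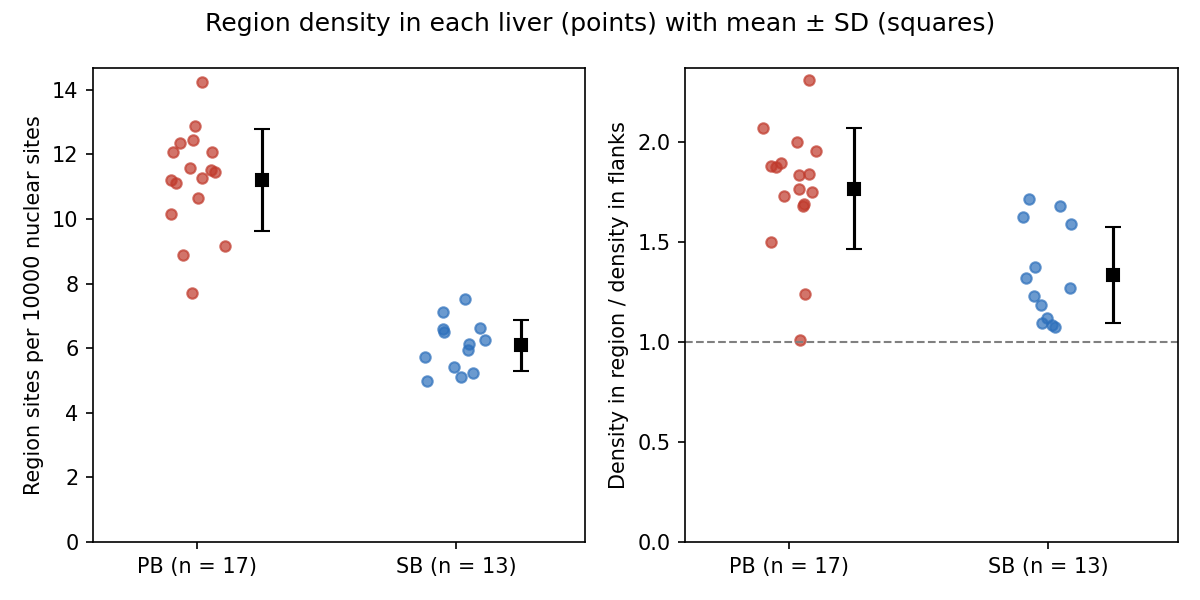
Insertions in the neighbourhood in each liver, PB to the left of SB. The left panel plots sites per 10000 nuclear sites, and the right panel the density per Mb in the neighbourhood over that in the flanks, with a dashed line at 1. Points are livers, and squares with bars are means ± SD (n = 17 and 13). The left panel shows no overlap between the groups, and the right panel shows overlap.

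Both systems were denser in the neighbourhood than in the 2 Mb on each side, PB more so than SB. The ratio of densities per Mb averaged 1.77 ± 0.303 in PB livers (lowest 1.01, median 1.84, highest 2.31) and 1.34 ± 0.239 in SB livers (lowest 1.07, median 1.27, highest 1.71). It lay above 1 in 17 of 17 PB livers and in 13 of 13 SB livers. The geometric mean ratio was 1.75 in PB livers (log2 0.81, sign-flip permutation test, adjusted p = 0.00011) and 1.34 in SB livers (log2 0.42, adjusted p = 0.00066). The difference between the systems was 0.39 on the log2 scale, or 1.31-fold (permutation test, adjusted p = 0.00209), although single PB and SB livers overlapped. The width of the flanks moved these values: with 5 Mb on each side the ratios were 2.48 in PB and 1.97 in SB livers, and with 1 Mb the difference between the systems was 0.69 on the log2 scale. All these kept their calls. Without positions found in more than 1 liver this difference was 0.14 and its call was lost (p = 0.465).

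Set against the genome, the neighbourhood ranked 8 for PB among 3791 windows of 700 kb, at 5.39 times the median window. For SB it ranked 32, at 2.49 times the median window.

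The excess of PB was in the middle of the neighbourhood, from 90.4 to 90.8 Mb, and the last 200 kb had the opposite difference. This inner stretch held 1250 of the 1417 PB sites (88.2%) and 371 of the 579 SB sites (64.1%). Per liver it held 81.6% to 100% of the neighbourhood's PB sites and 45.0% to 73.1% of its SB sites, a description, since the stretch consists of the 4 windows called higher in PB in these livers. edgeR's quasi-likelihood test was run on site numbers per window across the genome, with Benjamini-Hochberg adjustment and an adjusted p under 0.05. It called 4 of the 7 windows of 100 kb higher in PB, where 11.6% of all 20887 tested windows were. It called 2 of the 7 higher in SB, where 16.9% of all were. In the flanks 15 of 40 windows were higher in PB and 7 of 40 in SB. The median log2 difference was 0.84 over the 7 windows and −0.35 over all tested windows. The genome-wide median turned with the minimum, to 0.19 at 3 times as many sites, while the 7 windows kept a median of 0.84.

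The window from 90.5 to 90.6 Mb had 4 to 58 PB sites per liver (median 23) and 0 to 16 SB sites (median 7). That is 3.15 ± 0.759 per 10000 in PB and 0.964 ± 0.468 in SB, a log2 difference of 1.69 (SE 0.16, edgeR adjusted p = 3.6e-24). It ranked 20 for PB among 25904 windows and 599 for SB. The window from 90.7 to 90.8 Mb had 2.23 ± 0.869 per 10000 in PB and 0.639 ± 0.359 in SB (log2 1.60, SE 0.18, edgeR adjusted p = 5.92e-16). All 17 PB livers had a site in it, as did 11 of 13 SB livers.

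From 90.6 to 90.7 Mb the levels were 2.43 ± 0.564 in PB and 1.04 ± 0.547 in SB (log2 1.32, SE 0.17, edgeR adjusted p = 4.19e-13). From 90.4 to 90.5 Mb they were 2.17 ± 0.624 in PB and 1.23 ± 0.395 in SB (log2 0.84, SE 0.17, edgeR adjusted p = 1.03e-05). The stretch from 90.4 Mb was the densest of the 7 for SB and ranked 82 for SB in the genome, so it was high for both systems.

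The outer windows had fewer PB sites than the inner 4. Their PB density still stood above 53.8% to 76.6% of the genome's windows. In the last window, from 90.9 Mb, PB had 0.226 ± 0.228 per 10000 and SB had 0.700 ± 0.305 (log2 −1.30, SE 0.29, edgeR adjusted p = 0.000102). From 90.8 to 90.9 Mb PB had 0.481 ± 0.372 and SB had 0.824 ± 0.396 (log2 −0.81, SE 0.25, edgeR adjusted p = 0.00838). The call from 90.8 Mb was lost when site numbers were scaled so that the median window had no difference (log2 −0.47, edgeR adjusted p = 0.171). Both SB calls at 100 kb were lost once positions seen in several livers were dropped (edgeR adjusted p = 0.39 from 90.8 Mb and 0.107 from 90.9 Mb). Over the genome, calls higher in SB then fell from 3526 of 20887 tested windows to 321 of 20493. Of the alternatives tried, 4 ended the call from 90.8 Mb and 2 that from 90.9 Mb. The first window, up to 90.4 Mb, had 0.531 ± 0.314 in PB and 0.689 ± 0.532 in SB and did not pass the test (log2 0.03, SE 0.27, edgeR adjusted p = 0.951). Without SB liver 13 its SB mean was 0.577.

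**Figure D2:**
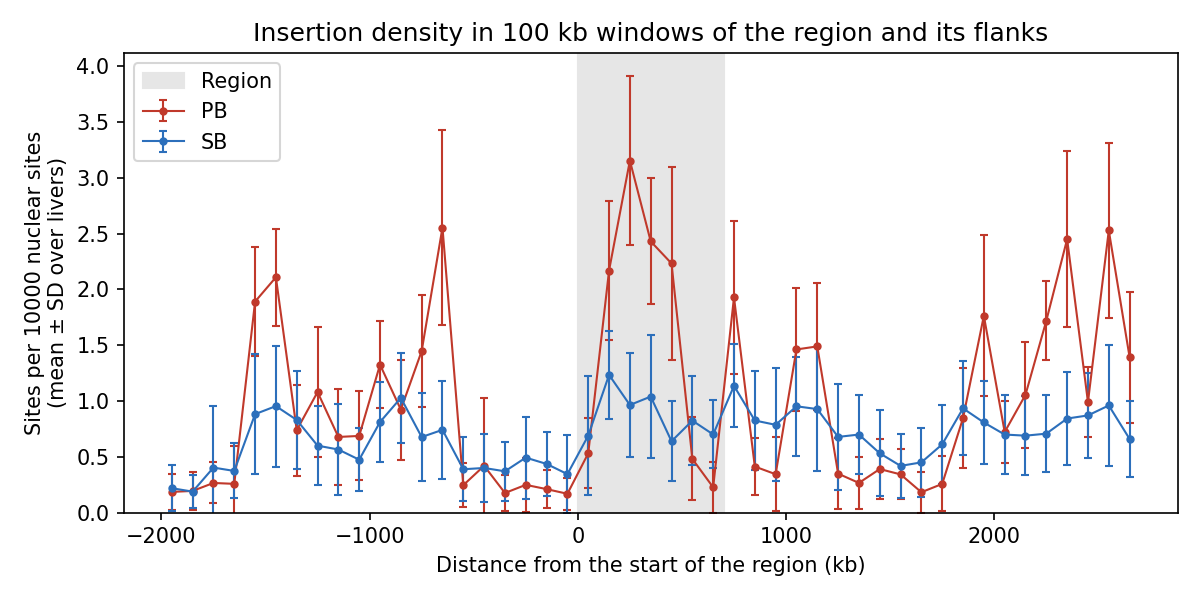
Sites per 10000 nuclear sites in 100 kb windows of the neighbourhood (grey band) and 2 Mb on each side, against distance in kb from its start. Points are means over 17 PB and 13 SB livers and bars are SD. PB reaches 3.15 inside the band, and 2.55 at the highest flank window, while SB stays at or below 1.23.

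At 10 kb, PB sites were gathered in few steps and SB sites were spread more evenly. The 10 steps with the most PB sites held 46.0% of the PB sites, and the 10 with the most SB sites held 26.1% of the SB sites. The coefficient of variation over the 70 steps was 1.11 for PB and 0.570 for SB. Over the flank steps it was higher, 1.46 for PB and 0.673 for SB, so this contrast is not particular to the neighbourhood. Median step density was 0.087 per 10000 in PB (0.0424 in the flanks) and 0.075 in SB (0.0578 in the flanks). In the PB profile 16 steps lay above the 90th percentile of flank steps, as did 15 in the SB profile. No step of the neighbourhood exceeded the densest flank step in either group.

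The step profiles of the systems had a low correlation over all livers (Pearson r = 0.0841, Spearman rho = 0.212 over 70 steps). For comparison, PB livers 1 to 6 and 7 to 12 gave r = 0.873 (rho = 0.828). PB livers 13 to 17 and 1 to 12 gave r = 0.830 (rho = 0.742). SB livers 1 to 6 and 7 to 12 gave r = 0.201 (rho = 0.358), without SB liver 13, which is in the value between systems. Since the SB profile repeated itself so little, the low value between systems cannot tell whether their profiles are unrelated. Steps of 1 profile come from the same libraries and SB has fewer sites per step, so these values are descriptions.

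**Figure D3:**
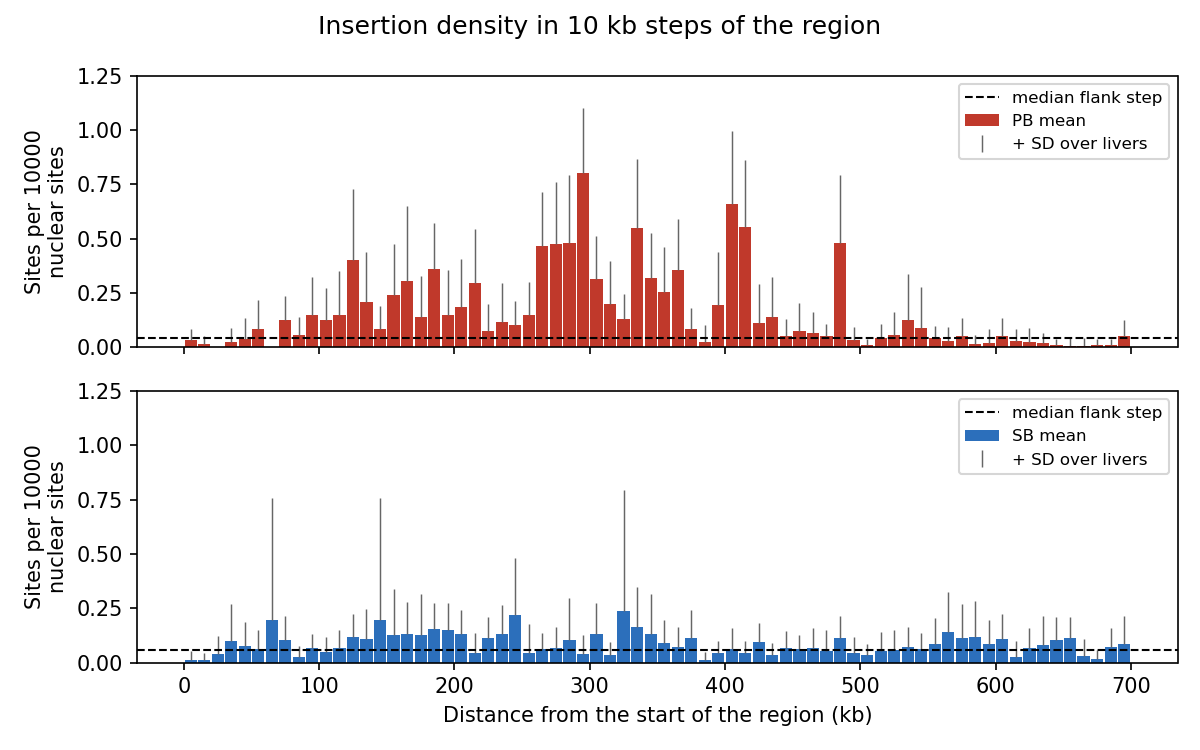
Sites per 10000 nuclear sites in each 10 kb step, PB above SB on a common scale. Bars are means over livers, grey lines reach 1 SD above the mean, and the dashed line is the median flank step (0.0424 for PB, 0.0578 for SB). PB bars reach 0.804 and SB bars 0.239.

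Of the 70 steps, 60 had at least 10 sites over all livers and were tested, and 10 were not. A step could pass this minimum through its denser group alone. edgeR called 15 steps higher in PB and 6 higher in SB, where 13.2% and 5.41% of all 69709 tested steps were called in these directions. In the flanks 49 of 254 tested steps were higher in PB and 18 of 254 in SB. The median log2 difference of the tested steps was 0.36 in the neighbourhood and 0.09 over the genome.

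The longest run of neighbouring steps higher in PB went from 90.55 to 90.62 Mb, 7 steps in all. It held 374 PB sites (26.4% of the PB sites of the neighbourhood) and 47 SB sites (8.12% of the SB sites). PB livers had 5, 20 and 46 sites there at the lowest, median and highest, and SB livers had 0, 3 and 8. Per 10000 the levels were 2.89 ± 0.590 in PB and 0.488 ± 0.365 in SB. Every PB liver had sites in the run, and 12 of 13 SB livers did. The PB livers spanned 1.78 to 3.78 per 10000 and the SB livers 0 to 1.37. The run was picked by its calls in these same livers, so its levels are a description.

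Inside this run the step at 90.59 Mb was the densest PB step of the neighbourhood and ranked 111 among 245416 steps of the genome. All 17 PB livers had 2 to 12 sites in it (median 4, 94 in all). SB had 3 sites there, in 3 livers. The levels were 0.804 ± 0.296 per 10000 in PB and 0.0398 ± 0.0857 in SB (log2 3.999, SE 0.43, edgeR adjusted p = 2.17e-17). The steps at 90.57 and 90.56 Mb held 69 and 62 PB sites against 7 SB sites each (log2 2.67 and 2.52, edgeR adjusted p = 1.16e-08 and 2.4e-07). After removal of reused positions, those seen in more than 1 liver, none of the 15 steps kept its call, and the log2 difference at 90.59 Mb was 1.16 (edgeR adjusted p = 0.34). The loss of calls was genome-wide: 580 of 57133 tested steps were then called higher in PB, against 9213 of 69709 with all positions.

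A second dense PB stretch lay from 90.70 to 90.72 Mb, where all 17 PB livers had 1 to 14 sites (median 11) and SB livers had 0 to 3. It held 151 PB and 12 SB sites. Its step at 90.70 Mb had 78 PB and 7 SB sites (log2 2.84, SE 0.40, edgeR adjusted p = 1.67e-10). Its step at 90.71 Mb had 73 PB and 5 SB sites (log2 3.13, SE 0.43, edgeR adjusted p = 9.63e-11). With reused positions dropped, these log2 differences were 0.59 and 1.01 (edgeR adjusted p = 0.685 and 0.389). The other steps among the 5 densest for PB were at 90.63 Mb, with 64 PB and 17 SB sites (log2 1.45, edgeR adjusted p = 0.000553), and at 90.78 Mb, with 53 PB and 12 SB sites (log2 1.64, edgeR adjusted p = 0.000661).

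The densest SB steps were mostly not called higher in SB. SB liver 13, with 4893 nuclear sites, bears on their order, since 1 site in it weighs as much as many in another liver. By the mean of all 13 SB livers the densest steps were at 90.62, 90.54, 90.44, 90.36 and 90.63 Mb. None of them was called higher in SB, and that at 90.63 Mb was called higher in PB. Without SB liver 13 the densest were at 90.54, 90.63, 90.48, 90.49 and 90.86 Mb, of which only the last was called higher in SB. The step at 90.54 Mb held 16 PB sites in 10 livers and 22 SB sites in 9 livers, with 8 of those SB sites in a single liver. Its difference did not pass the test (log2 −0.76, edgeR adjusted p = 0.234). The step at 90.36 Mb held no PB site in 17 livers and 4 SB sites, too few to be tested.

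All 6 steps higher in SB started at 90.86 Mb or later and rested on few sites. At 90.95 Mb there were 1 PB and 13 SB sites (log2 −2.59, SE 0.65, edgeR adjusted p = 0.00128). At 90.94 Mb there were 2 PB and 11 SB sites (log2 −2.001, edgeR adjusted p = 0.0165), and at 90.86 Mb 3 PB and 13 SB sites (log2 −1.90, edgeR adjusted p = 0.0155). At 90.88 and 90.89 Mb there were 2 PB and 9 SB sites each, at an edgeR adjusted p of 0.0484. DESeq2, which gave no adjusted p for 26 of the 60 steps, called 0 of the rest higher in SB, and limma-voom called 1. With the liver number as a replicate block only the step at 90.95 Mb kept its call among these 5 (edgeR adjusted p = 0.0439), and the others had an adjusted p of 0.064 to 0.225.

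**Figure D4:**
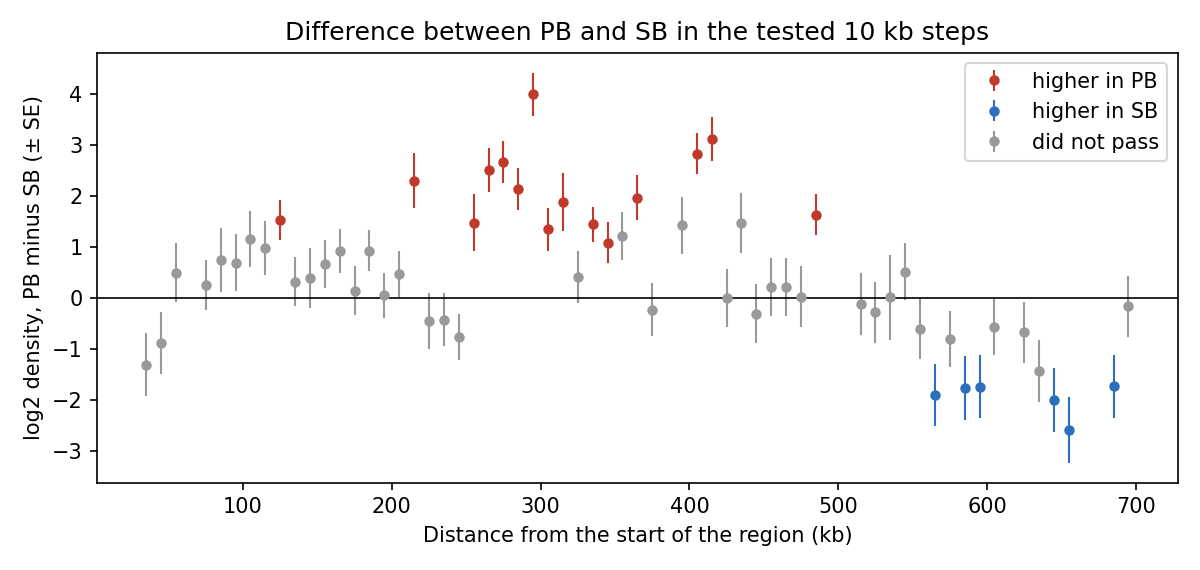
Difference in site density, PB minus SB on the log2 scale, in the 60 tested 10 kb steps against distance in kb from the start of the neighbourhood. Points are edgeR's fitted values and bars are SE derived from the test statistic. Red points are the 15 steps higher in PB, blue points the 6 higher in SB and grey points did not pass the test. The red points lie between 120 and 490 kb and the blue points past 560 kb.

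Sites of both systems lay on both strands in nearly equal numbers. Plus-strand sites were 50.2% ± 4.76 of the neighbourhood's sites per PB liver (SD, n = 17) and 49.2% ± 10.0 per SB liver (SD, n = 12, SB liver 13 with 3 sites left out). The difference of 1.03 percentage points did not pass a permutation test (adjusted p = 0.82). Against the flanks, the plus share differed by −0.91 points in PB (adjusted p = 0.819) and 1.16 points in SB (adjusted p = 0.82). In the run from 90.55 to 90.62 Mb 52.9% of PB sites were on the plus strand, and in the stretch from 90.70 to 90.72 Mb 48.3% were.

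PB returned to the same positions in different livers, and SB rarely did. The 1417 PB sites lay at 859 positions, of which 234 (27.2%) were found in 2 or more livers, and 35 (4.07%) in 5 or more. The 579 SB sites lay at 563 positions, of which 15 (2.66%) were found in at least 2 livers, and none in more than 3. Over all nuclear positions 16.9% of PB positions were found in 2 or more livers and 2.04% in 5 or more, and 1.91% of SB positions in 2 or more, so the contrast between PB and SB is genome-wide and the SB share is near its background. Of all PB sites 55.6% lay at positions found in more than 1 liver, and of SB sites 5.35% did. The groups differ in the number of livers, which bears on these counts.

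For PB, reuse in the neighbourhood stood above that elsewhere in most livers. Per PB liver, 43.1% ± 4.37 of sites in the neighbourhood shared position and strand with another PB liver, against 39.2% ± 4.54 in the flanks and 29.2% ± 1.37 in the rest of the genome (SD, n = 17). The neighbourhood exceeded the flanks in 14 of 17 PB livers and the rest of the genome in 17 of 17. For SB the shares were 1.53% ± 1.65, 2.11% ± 1.39 and 2.14% ± 0.150 (SD, n = 13), and 6 of 13 livers had no such site in the neighbourhood. A liver's share is computed from the other livers of its group, so these values depend on each other and were not tested.

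The position used by most PB livers was chr5:90640798-90640801 (GRCm39), found in 12 of 17 livers with 5 plus and 12 minus records. Next came chr5:90563582-90563585 and chr5:90595317-90595320, each in 11 livers with 7 plus and 6 minus records. Of these, the second is in the densest PB step. The same step holds chr5:90598133-90598136, found in 10 livers with 7 plus and 9 minus records. Also found in 10 livers was chr5:90425425-90425428, with 8 plus and 5 minus records. The run from 90.55 to 90.62 Mb held 14 of the 35 positions found in at least 5 livers.

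Most reused PB positions were hit in both orientations. Of the 234 positions, 164 had records on both strands, and of the 35 in at least 5 livers 34 did. Where both strands are used about equally, positions with many records mostly show both, so these counts add little to the strand shares above. No share over all reused PB positions of the genome is given here to set beside them. Within a single liver both strands of a position were recorded 55 times for PB (4.04% of liver positions in the neighbourhood) and 0 times for SB, where 0 of 579 allows a share of up to 0.518%. Over all nuclear positions the share was 2.50% for PB and 0.105% for SB, so the SB count is near its background. The single SB position in 3 livers was chr5:90669125-90669126, with 2 plus and 1 minus records.

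PB and SB shared 3 positions in the neighbourhood, where the SB dinucleotide is inside the PB tetranucleotide. They were 0.349% of the PB positions and 0.533% of the SB positions. Over all nuclear positions 2111 were shared, 0.232% of PB and 0.227% of SB positions. The 3 were chr5:90351429-90351432, in 3 PB livers and 1 SB liver, chr5:90544374-90544377, in 1 liver of each, and chr5:90563923-90563926, in 2 PB livers and 1 SB liver.

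**Figure D5:**
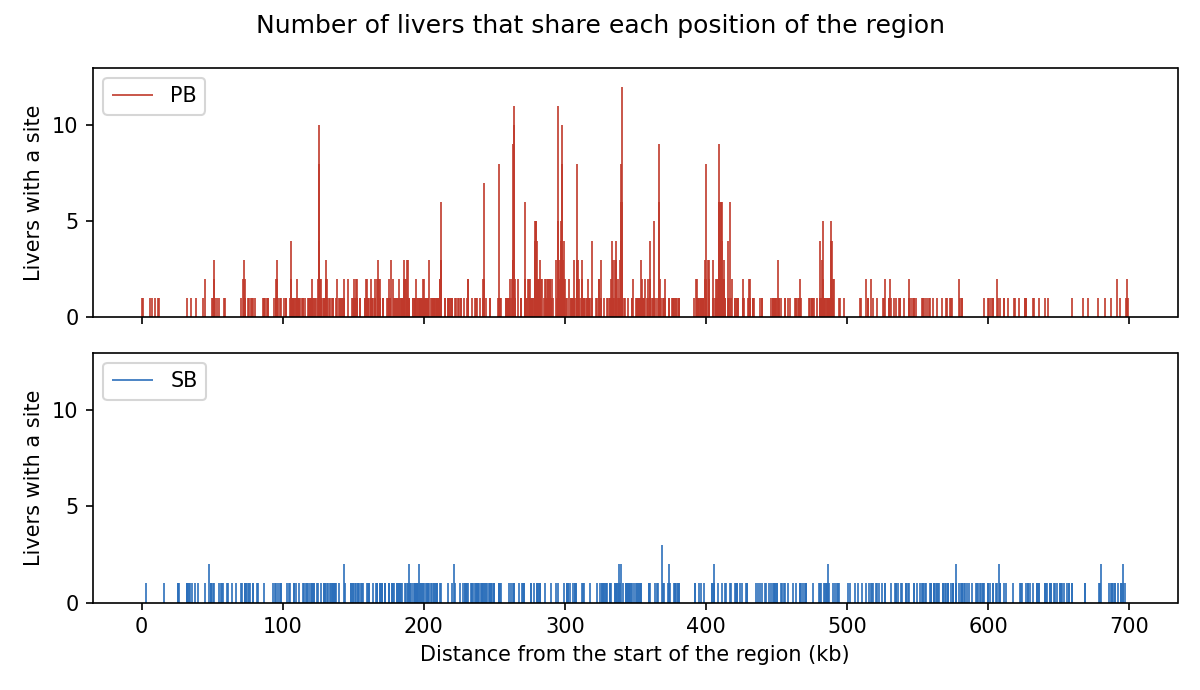
Number of livers with a site at each position of the neighbourhood, against distance in kb from its start, PB (17 livers) above SB (13 livers) on a common scale. Each line is 1 position. PB positions reach 12 livers, with tall lines between 120 and 490 kb, and SB positions reach 3.

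Each site also has a whole number in the deposited tables, taken here as the reads behind it and called its support. No source used here says what it is. Support ranged from 3 to 337 (median 48) at the neighbourhood's PB sites and from 3 to 278 (median 47) at its SB sites. The median support in the neighbourhood over that in the rest of the same liver was 1.02 ± 0.105 in PB livers (SD, n = 17, 0.738 to 1.17) and 1.02 ± 0.117 in SB livers (SD, n = 12, 0.859 to 1.20). Neither passed a sign-flip permutation test against 1 (adjusted p = 0.819 for PB, exact test, adjusted p = 0.82 for SB), nor did the difference between systems pass (adjusted p = 0.919).

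Among PB sites 26 (1.84%) were in the top 1% of support of their own liver and 187 (13.2%) in the top 10%. Among SB sites 4 (0.691%) were in the top 1% and 54 (9.33%) in the top 10%. The PB site that stood highest in its liver was at chr5:90717022-90717025 on the minus strand, with a support of 289 in PB liver 4, where the median was 72 and it ranked 30 of 66528. The SB site that stood highest was at chr5:90942063-90942064 on the minus strand, with a support of 209 in SB liver 6, ranking 100 of 72963. By number of livers at a position, the median percentile of PB support within the liver was 49.9 for 1 liver, 53.9 for 2 to 4 livers and 57.9 for at least 5. For SB it was 52.2 for 1 liver and 36.7 for 2 to 4 livers, the last over 31 records. These are descriptions.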

How the data were processed

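Insertion sites were analysed in 17 PB and 13 SB livers, each as 1 replicate. The labels do not say how livers were drawn from animals, so p-values measure the spread between these livers. The submitters' processing notes name cutadapt, BWA and the build GRCm39, with no version. In each liver's deposited table a site has a position, a strand and a whole number, of at least 3, whose unit is not stated per the file headers or labels. A pair of deposited merged tables holds counts of records per position over livers 1 to 12, and equalled the liver tables at all 807 PB and 560 SB positions of the neighbourhood.

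Members, lists and tests were chosen with earlier results of these data known. Sites per liver were divided by nuclear sites, with a pseudocount of 0.5 sites on the log2 scale. Two-sided permutation tests (100000 resamples) moved livers between groups, or flipped signs within a group, and were exact where a group had under 10 livers or at most 12 signs were flipped. Windows with at least 10 sites (10 kb) or 30 sites (100 kb) were tested across the genome with edgeR 4.0.16 in R 4.3.3, with nuclear sites as library size. Log2 differences of windows are edgeR's fitted values and can differ from the ratio of the printed means. Their SE was derived as the size of the log2 difference over the square root of the test's F statistic. Alternatives used limma 3.58.1 and DESeq2 1.42.0. Other steps used scipy 1.17.1, pandas 2.3.3 and numpy 2.4.6 in Python 3.11.15. Tests were tested on simulated data, in which few changed 10 kb steps were recovered, so a step that did not pass is weak evidence of no difference. Steps to name were the 5 densest per group and the 5 with the largest called difference in each direction, with the 5 positions in most livers and the 3 sites of highest rank per group. Liver numbers were not taken to pair PB with SB livers: over 13 pairs the correlation of deviations ran from -0.00842 to 0.158, with 1 above 0.1. Placing sites in genes and dividing by target motifs were not run, since the tables are on another build.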

Additional observations from a re-analysis of the deposited data

Results flagged for a closer look

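The difference between the systems in density over the flanks was picked out because a test of the difference itself passed: PB exceeded SB by 0.39 on the log2 scale (permutation test, adjusted p = 0.00209). It did not pass without positions found in more than 1 liver.

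PB liver 16 stood apart from PB livers 13, 14, 15 and 17 in its share of plus-strand sites in the neighbourhood, 60.0% (9 of 15 sites). Among all PB livers it did not stand apart, since PB liver 1 had 60.3%. It was the only such value in 5 measures checked in this group of 5 livers, and chance flags about 1 in 20 groups for each measure.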

How the results depend on the processing

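Dropping every position that occurred in more than 1 liver, which takes more PB than SB sites, ended the most calls. The PB excess was then 0.29 (log2) and that over the flanks 0.14, neither past the threshold. No 10 kb step was called in either direction by edgeR (11 higher in PB and 4 higher in SB at an unadjusted p under 0.05). At 100 kb, 4 windows stayed higher in PB and 0 higher in SB. Over the genome, edgeR then called 580 steps higher in PB and 294 higher in SB of 57133 tested. At 100 kb it called 528 windows higher in PB and 321 higher in SB of 20493 tested. PB livers 13 to 17 then stood further below PB livers 1 to 12 (log2 −0.63, against −0.16 with all positions, exact permutation p = 0.0133), and support differed by −0.0025 in PB and −0.0295 between systems.

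The 15 steps higher in PB were 7 in livers 1 to 6 (an alternative chosen after seeing the data, as was livers 7 to 12 alone) and 11 to 16 under each alternative not yet named. In livers 1 to 6 only 34 steps of the neighbourhood were tested, and over the genome 3641 of 21341 were called higher in PB. The 6 steps higher in SB were 3 without a minimum, with support of at least 10, or with shifted windows, 1 with limma-voom or in livers 7 to 12, and 0 with DESeq2, with 3 times the minimum, or in livers 1 to 6. None of these 6 steps had enough sites to be tested with 3 times the minimum, in livers 1 to 6 or in livers 7 to 12. Their calls could not recur there, and the 1 call in livers 7 to 12 was at another step. The 4 windows of 100 kb higher in PB became 5 with shifted windows and otherwise stayed 4. The 2 higher in SB became 1 with centring, DESeq2, shifted windows, livers 1 to 6 or livers 7 to 12. Of 185 alternative values at the named steps 28 lost their call and 0 changed sign.

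Genome-wide at 100 kb, PB was higher in 2431 windows and SB in 3526, against 3981 and 1212 with centring, 2442 and 2618 with TMM scaling, and 2349 and 1738 with DESeq2, which changes test and filter too. At 10 kb the counts were 9213 and 3771, against 8250 and 3974 with centring, 6703 and 3331 with TMM, 6571 and 194 with DESeq2, and 5179 and 147 with limma-voom.

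Values under no call changed sign: plus share against the flanks (PB 0.0292 in livers 1 to 12 and 1.91 in livers 1 to 6, SB −1.86 in livers 1 to 6), plus share PB minus SB (−2.38 in livers 7 to 12, −0.12 at support of at least 10), SB support (−0.00879 in livers 7 to 12, −0.000635 at support of at least 10), and the fitted difference in the first 100 kb window (0.03 with all livers, −0.0795 in livers 7 to 12, −0.059 with the replicate block, −0.0294 at support of at least 10). The causes were not tested.

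With the liver number as a replicate block, the log2 excess of PB was 0.86 and that over the flanks 0.39, and the 10 kb counts were 13 higher in PB and 1 in SB. The block left the 100 kb counts at 4 and 2. Among the pairs of equal number, 2 of 13 pairs correlated best with their own number. Alternatives needing genes or target motifs were not run. SB liver 13, with 3 sites, and PB livers 13, 16 and 17, with 15 to 18, limit what single livers show.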
